A study of Danio rerio with 58 samples.

Results

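Among 18 single cells picked from the roof of the zebrafish dorsal aorta at 21 hours post fertilization (hpf), 4 cells carried reads of myb and 14 carried few or none. The 4 cells were chosen by their raw myb counts, at 5 or more, so myb itself is given here only as a description, and the question is what the other genes of these cells did. The series held 58 cells in all. The embryos carried 2 transgenes driven by the flk1 promoter, Tg(flk1:eGFP), a green reporter, and Tg(flk1:NLS-Eos), a nuclear Eos protein that turns from green to red under light. All groups shared this genotype and had no treatment in the labels. The roof is the dorsal wall of the vessel and the floor its ventral wall, and red Eos cells of either wall were picked by hand under a microscope. Each cell became 1 library by Smart-seq2, a method that amplifies the polyA RNA of 1 cell over its full length. Besides the 18 roof cells, 18 floor cells of 21 hpf and 10 roof cells of 28 hpf were used for comparison. The labels name no embryo, so the cells of a group count as 1 sample, no test across cells was made, and every statement below describes these libraries.

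The floor of the dorsal aorta is where hemogenic endothelium turns into hematopoietic stem and progenitor cells, and the roof is generally described as plain arterial endothelium. In the zebrafish, runx1, gata2b and the gfi1 repressors act early in this transition, and myb, a DNA-binding transcription factor, is needed for the stem and progenitor cells that emerge to persist and to give rise to definitive blood. Endothelial genes such as kdrl and cdh5 are turned down as a cell becomes blood.

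The myb counts of the 4 cells fell into 2 very different ranges. Roof cell 7 had 1044 myb counts, or 483 CPM (counts scaled to a common library total), and roof cell 10 had 182, or 821 CPM. Roof cell 14 had 10 counts, or 7.53 CPM, and roof cell 8 had 7 counts, or 6.07 CPM. The threshold thus passed between cell 8 on the inside and roof cell 18, with 3 counts, on the outside, and 4 of the 14 other cells had at least 1 myb count, with 2.86 CPM as the highest level. The totals of the 4 libraries were 2160381 (cell 7), 1153970 (cell 8), 221604 (cell 10) and 1327933 (cell 14) counts, and those of the other cells ranged from 129849 to 4693992 with a median of 2361660. Because the rule is a raw count, 5 counts stand for 1.07 to 38.5 CPM among the 14 other cells, and 4 of them were too shallow to show 5 counts at the level of cell 14. After every cell was thinned to 120000 reads, myb reached 5 reads in cells 7 and 10 only.

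Shares of cells with 5 or more myb counts were 4 of 18 in the roof at 21 hpf, or 22.2% (exact 95% binomial interval 6.41 to 47.6%, for counting cells only). In the floor at 21 hpf they were 14 of 18, or 77.8% (52.4 to 93.6%), and in the roof at 28 hpf 0 of 10, which allows up to 30.8%. The floor cells that met the rule had 31.5 to 2177 CPM of myb with a median of 485. Cells 7 and 10 therefore lay within the myb range of the floor cells, while cells 8 and 14 lay below all of them.

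At 120000 reads, cells 7, 8, 10 and 14 showed 4818, 5237, 3559 and 7104 genes, against 2960 to 6403 (median 4293) in the other roof cells. Only cell 14 lay outside that range, above it. Mitochondrial counts made up 0.399 to 6.21% in the 4 cells, the highest in cell 7, and 0.334 to 5.60% in the other 14. No pair of roof libraries looked like a duplicate, since the highest correlation of log2 CPM between any of them was 0.760.

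The labels call all cells endothelial, and all 4 cells held most markers of that type. Of 20 genes of the pan-endothelial list, 5 or more thinned reads were found for 14 in cell 7, 19 in cell 8, 14 in cell 10 and 19 in cell 14, against 15 to 20 in the other roof cells. The same genes were detected in as few as 2 per cell among the myb-positive floor cells. Cells 7 and 10 were therefore just under the range of the other roof cells, and cells 8 and 14 inside it.

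Blood transcription factors of the hemogenic program came first. The reads of gfi1aa, which encodes a repressor that silences endothelial genes in emerging blood cells, stood at 95.4 CPM in cell 7, 2.60 CPM in cell 8, 0 in cell 10 and 30.9 CPM in cell 14. In the other roof cells gfi1aa ran from 0 to 1.94 CPM with a median of 0.121. Cells 7, 8 and 14 lay above every other roof cell in CPM. Cell 8 did so on 3 reads, and the most reads in any other roof cell were also 3. Cell 10, with the highest myb level, carried none, in a library where 1 read equals 4.51 CPM. In the myb-positive floor cells the median of gfi1aa was 193 CPM, with 12 of 14 at 5 or more counts. The thinned sum of gfi1aa was 56.0-fold higher in the 4 cells on a single read in the other 14, with an exact 95% counting interval of 8.7- to 2348-fold. Its log2 ratio of 5.81 was 3.81 without cell 7. Without roof cell 11, which held that single read, the other sum was 0. There 3 reads set in place of 0 gave 4.12, a lower bound. The paralog gfi1ab had 113 reads in cell 7, or 52.3 CPM, and 0 in the other 17 roof cells and in all 14 myb-positive floor cells. The 2 paralogs are similar in sequence and how shared reads were counted is not given, so the split between them is uncertain. The third member, gfi1b, was at 0 in the 4 cells.

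Several further blood genes had no read in the 4 cells. No read of runx1, the master regulator of the endothelial-to-hematopoietic transition, was found in any of the 18 roof cells, and among the myb-positive floor cells 4 of 14 reached 5 counts, with 40.0 CPM as the highest. A count of 0 over the 480000 thinned reads of the 4 cells allows up to 6.25 CPM taken as 3 reads, and up to 7.69 CPM by the exact 95% interval. Also at 0 in the 4 cells were itga2b, the integrin subunit that marks stem cells and thrombocytes, kita, the receptor of stem cell factor, gata1a, the main erythroid factor, and spi1b, the main myeloid factor. Of these, gata1a had a median of 214 CPM in the myb-positive floor cells. There itga2b was at 0 in all 14, and kita and spi1b reached 5 counts in 2 and 5 of 14. The gene gata2b, which acts upstream of runx1 in the zebrafish floor, stood at 0 in cell 7, 37.3 CPM in cell 8, 22.6 CPM in cell 10 on 5 reads and 7.53 CPM in cell 14, against a highest level of 7.27 CPM in the other cells. Its thinned sum was 2.92-fold higher with an interval of 0.704 to 11.5, which includes no difference. The log2 ratio of 1.54 was 0.64 without cell 8, and it turned to a log2 ratio of -0.32 when only cells with 5 or more thinned myb reads counted as positive.

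Factors shared by blood and endothelium split between the cells. The reads of tal1, a helix-loop-helix factor needed for both lineages, stood at 1377 CPM in cell 7, 136 in cell 8, 153 in cell 10 and 485 in cell 14, against 0 to 265 CPM (median 179) in the other roof cells. Cells 7 and 14 were thus above all others, and the 3.00-fold higher sum (2.51 to 3.58) dropped to a log2 ratio of 0.42 without cell 7. Its partner lmo2 lay inside the range of the others in all 4 cells, at 247, 601, 799 and 524 CPM in cells 7, 8, 10 and 14 against 165 to 1060. The gene gata2a, expressed in endothelium and early blood, was at 558, 578, 9.03 and 279 CPM in the same order against 0.383 to 702 in the others, again without a cell outside their range.

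Some lineage factors of blood were above the other roof cells in some of the 4 cells, while gata1a and spi1b were at 0 in all 4. The myeloid factor cebpa was at 1091 CPM in cell 7, 13 in cell 8, 1575 in cell 10 and 47.4 in cell 14. Of the other 14 cells, 1 carried it at 5 or more counts, roof cell 1 at 230 CPM, and their median was 0.156. Cells 7 and 10 lay at the level of the myb-positive floor cells, whose median was 730 CPM, and the summed level of the 4 was 43.0-fold higher (29.0 to 66.3). Single libraries set this value, as its log2 ratio of 5.43 was 10.08 without roof cell 1 and 4.61 without cell 10. Its relative cebpb, active in myeloid and stress responses, was at 50.5 CPM in cell 7, 0 in cell 8, 248 in cell 10 and 168 in cell 14, and at most 0.622 in the other roof cells. In the myb-positive floor cells its median was 0.271 CPM, while 6 of 14 had 5 or more counts and the highest level was 2848 CPM. The myeloid markers of differentiated cells were absent, as mpx, the neutrophil peroxidase, was at 0 in the 4 cells.

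The zinc finger gene ikzf1, a regulator of lymphoid and other blood lineages, was found in cell 10 at 375 CPM. It was at 0.463 CPM in cell 7, 0.867 in cell 8 and 0 in cell 14, and at most 3.91 in the other roof cells, while the floor median was 361. Here cell 10 alone matched the floor.

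Of the erythroid regulators blf, znfl2a and klf17, some were above the other roof cells in cells 7, 10 and 14, and none in cell 8. The main erythroid factor gata1a had no read in cells 7, 8, 10 and 14, as given above. The zebrafish blood zinc finger gene blf was at 989 CPM in cell 7, 9.53 in cell 8, 13.5 in cell 10 and 32.4 in cell 14, against 0 to 34.3 in the other roof cells and 1262 to 12718 in the myb-positive floor cells. Cell 7 lay between the 2 groups. The zinc finger gene znfl2a was at 275 CPM in cell 10, with 35.6, 0.867 and 27.1 in cells 7, 8 and 14, against a highest level of 61.6 in the other roof cells and a lowest level of 356 in the floor cells, so here cell 10 lay between the groups. The factor klf17, needed for primitive red cells in the zebrafish, was at 42.6 CPM in cell 7, 48.2 in cell 14 and 0 in cells 8 and 10, with at most 1.99 in the others and a floor median of 898.

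Globins themselves stayed near the floor of detection. The alpha globin hbae1.1 had 33, 3, 7 and 2 reads in cells 7, 8, 10 and 14, or 15.3, 2.60, 31.6 and 1.51 CPM, against at most 7.70 CPM in the other roof cells and a median of 1533 in the floor cells. The beta globin hbbe3 was at 0, 1.73, 22.6 and 2.26 CPM against at most 36.5 in the others, without a cell outside their range. Both globin levels in cell 10 rest on 7 and 5 reads. Expressed as the summed share of the 24 erythroid genes of the table, cell 7 had 0.108% of its counts, cell 8 0.00338%, cell 10 0.0384% and cell 14 0.0144%. The other roof cells ran from 0.00093 to 0.0169% and the myb-positive floor cells from 0.212 to 6.98%. Reads of blf made up 91.2% of the share of cell 7 and reads of znfl2a 71.8% of that of cell 10, both without correction for transcript length.

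**Figure D1:**
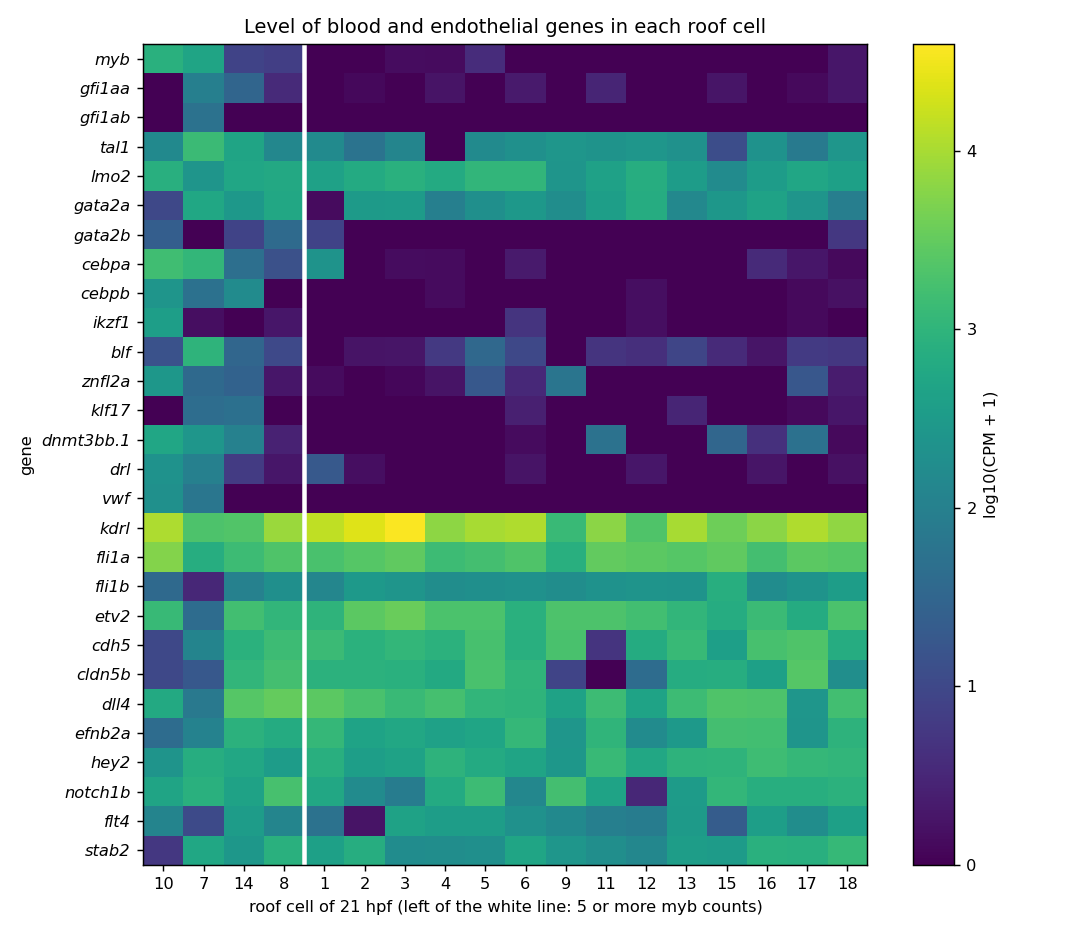
Level of genes in each of the 18 roof cells of 21 hpf, as log10 of CPM plus 1. The 4 cells of 5 or more myb counts are left of the white line. Upper rows are blood genes together with dnmt3bb.1, drl and vwf, and lower rows are endothelial genes. The genes dnmt3bb.1, drl and vwf are in none of the blood lists and come from those found high in both cells 7 and 10. Cells 10 and 7 carry cebpa at 1575 and 1091 CPM while the endothelial rows remain filled in most columns, with gaps for cdh5 and cldn5b in cell 10 at 9.03 CPM each.

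Endothelial genes were present in all 4 cells, and cells 7 and 10 carried less of some of them. The pan-endothelial share was below the other roof cells in cell 7, and the arterial share in cells 7 and 10, as given below. The VEGF receptor gene kdrl, whose promoter drives the reporters, was at 2055 CPM in cell 7, 8045 in cell 8, 10654 in cell 10 and 2249 in cell 14. The other roof cells ran from 1317 to 37974 CPM with a median of 8394, so all 4 cells lay within them, and the myb-positive floor cells reached at most 611. The ETS factor fli1a was at 743 CPM in cell 7, 2142 in cell 8, 5546 in cell 10 and 1419 in cell 14, against 801 to 3066 in the others. Cell 7 was under that range and cell 10 above it. The ETS factor etv2, which specifies endothelium and early blood, was at 40.7 CPM in cell 7 and at 1043, 1241 and 1628 in cells 8, 10 and 14, against 662 to 3560 in the others, so cell 7 alone fell short.

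Junction genes were low in the cells with the most myb. The adhesion gene cdh5, encoding VE-cadherin, was at 116 CPM in cell 7 and 9.03 in cell 10, the latter on 2 reads, and at 1445 and 864 in cells 8 and 14. The other roof cells had a median of 1010 CPM but reached down to 3.88, in roof cell 11. The tight junction gene cldn5b was at 17.1, 1708, 9.03 and 1050 CPM in cells 7, 8, 10 and 14 against 0 to 2472 (median 719). Because single other cells were as low, neither gene separated cells 7 and 10 from the rest. The second fli1 gene, fli1b, did so, at 2.31 and 36.1 CPM in cells 7 and 10 against 130 to 754 in the others, with cell 14 also below them at 106 and cell 8 inside at 191.

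Arterial and Notch genes followed the same division. The Notch ligand dll4 was at 70.8 CPM in cell 7, 3212 in cell 8, 627 in cell 10 and 2470 in cell 14, against 258 to 2730 in the other roof cells. Cell 7 was below every other roof cell and cell 8 above. The arterial ephrin efnb2a was at 108, 679, 40.6 and 900 CPM in cells 7, 8, 10 and 14 against 162 to 1683, so cells 7 and 10 were both below. The Notch effector hey2 was at 729, 350, 235 and 581 CPM against 270 to 1514, with cell 10 just under the range. The receptor gene notch1b, at 845, 1860, 492 and 450 CPM against 2.31 to 1679, left the range only upward, in cell 8. The low arterial levels of cells 7 and 10 did not extend to every gene, and hey2 and notch1b in cell 7 lay within the range of the other cells.

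The venous and lymphatic receptor gene flt4 was at 9.72, 124, 117 and 346 CPM in cells 7, 8, 10 and 14 against 0.724 to 454, all within the others. The flow-sensing factor klf2a was at 291 CPM in cell 14 and 0 in the other 3 cells, against 0 to 195 in the other roof cells. Its log2 ratio was 0.38. Without cell 14 the sum of the cells with myb was 0, and 3 reads set in its place gave -2.79, an upper bound.

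Summed shares of each cell's counts put the endothelial genes in one measure. Pan-endothelial genes made up 0.543% of the counts of cell 7, 2.08% of cell 8, 2.35% of cell 10 and 1.54% of cell 14. The other roof cells had 0.907 to 5.28% with a median of 2.36%, and the myb-positive floor cells 0.0138 to 0.388%. Cell 7 was below every other roof cell and above every myb-positive floor cell, and the other 3 were inside the roof range. Arterial and Notch genes made up 0.310, 1.65, 0.233 and 0.754% of cells 7, 8, 10 and 14 against 0.548 to 1.46% in the others and 0.0157 to 0.263% in the floor cells. Here cell 10 lay inside the floor range, cell 7 between the groups and cell 8 above every other roof cell. Genes of sprouting and tip cells made up 0.0287, 0.299, 0.0704 and 0.191% against 0.0599 to 0.388%, with cell 7 alone below the others.

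Hemogenic and blood progenitor genes, with myb left out, made up 0.380% of the counts of cell 7, 0.165% of cell 8, 0.448% of cell 10 and 0.181% of cell 14. The other roof cells had 0.0712 to 0.257% and the floor cells with myb 0.130 to 0.775%. Cells 7 and 10 were above every other roof cell, and cells 8 and 14 were not. Reads of cebpa, a member of both this list and the myeloid list, made up 28.7% of the share of cell 7 and 35.1% of that of cell 10. In cell 7, tal1 made up a further 36.2%. Myeloid genes, with cebpa and cebpb nearly alone, made up 0.114, 0.00130, 0.182 and 0.0215% in the same order against 0 to 0.0260% in the others.

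**Figure D2:**
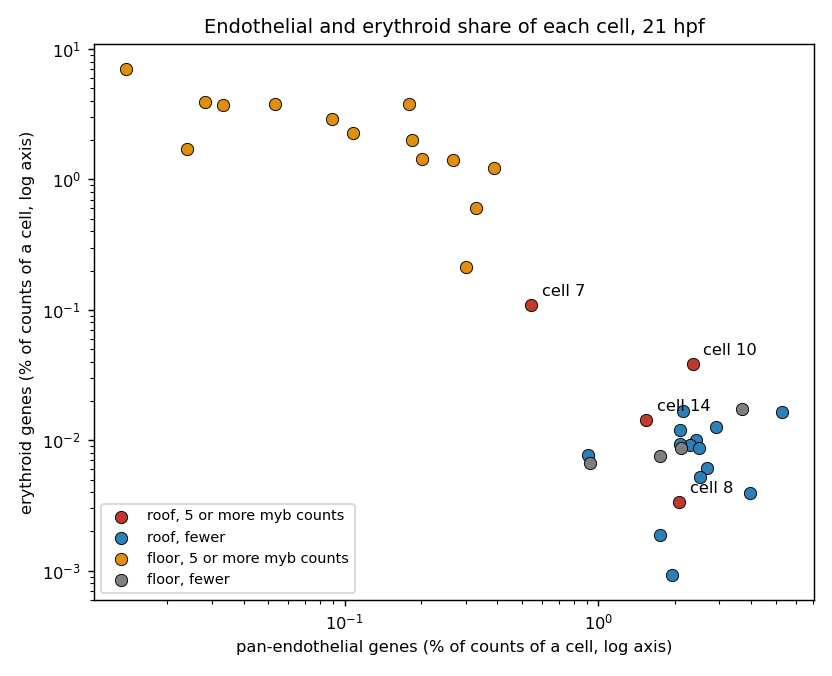
Share of each cell's counts on pan-endothelial genes (horizontal, percent, log axis) and on erythroid genes (vertical, percent, log axis) for the 36 cells of 21 hpf, with 1 point a cell. Cell 7 lies between the roof and the myb-positive floor cells on both axes, at 0.543% and 0.108%, cell 10 is above the other roof cells on the erythroid axis alone, and cells 8 and 14 lie among them.

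Taking the 4 cells as a sum against the sum of the 14, 9244 genes had 10 or more thinned reads. Of these, 20.7% (1914) were at least 2-fold higher in the 4 cells and 25.5% (2361) at least 2-fold lower, with a median log2 ratio over all genes of -0.15. These shares are the background against which the lists are read. Of 23 hemogenic and blood progenitor genes in the table, 13 had enough reads, of which 6 were at least 2-fold higher and 2 lower, with a median log2 ratio of 0.52. The 6 were gfi1aa, cebpa, ikzf1, tal1, cbfb and gata2b. The log2 ratio of cbfb was 2.39. Without cell 10 it had 0 thinned reads in the remaining cells with myb, so no ratio could be given. Of the 2 lower genes, lcp1 was 16-fold lower (4.33 to 134). It was at 5.55, 0, 0 and 0 CPM in cells 7, 8, 10 and 14 against 0 to 418 in the others. Without cell 10 the list median was -0.12, so it rests on that library. The list median was 0.0848 from raw sums and 0.0938 with cells 8 and 14 alone as positive. Of 24 erythroid genes 7 had enough reads, of which 4 were higher (blf, znfl2a, klf17 and hbae1.1) and 1 lower. The median of 3.03 came to 0.64 without cell 7 and 0.69 without cell 10. It is the value of hbae1.1, on 7 against 3 thinned reads, with a counting interval of 0.90 to 5.61. All 10 thinned reads of klf17 came from the 4 cells, so it met the minimum of reads through them alone. Of 15 myeloid genes 2 had enough reads, cebpa and cebpb, both higher, and cebpa is also counted in the hemogenic list.

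Of 20 pan-endothelial genes, all with enough reads, 0 were at least 2-fold higher, 5 lower and 15 within 2-fold, with a median log2 ratio of -0.53. The lower ones included she, an SH2-domain adaptor, 4.09-fold lower (3.63 to 4.61), pecam1, an adhesion receptor, 3.60-fold lower (2.00 to 7.11), and fli1b, 3.16-fold lower (2.30 to 4.47). Without cell 10 the log2 ratio of she went from -2.03 to -3.43, and without cell 8 that of pecam1 went from -1.85 to -3.02 and that of fli1b from -1.66 to -2.80. The share of 25.0% lower is close to the background of 25.5%. The pan-endothelial median stood at -0.33 without cell 7 and at -1.16 when only cells 7 and 10 counted as positive. Of 22 arterial and Notch genes, 2 were higher, gja5a (a connexin) and jag1b (a Notch ligand), 6 lower and 14 within, with a median of -0.25. Both higher genes rest on cell 8, without which their log2 ratios of 1.51 and 1.22 were 0.27 and -0.08, and the list median was -0.92 without cell 8 and 0.06 without roof cell 17. The medians of the smaller lists also moved with single cells. Venous genes had a median of -0.80 with 3 of 9 lower, sprouting genes -0.71 with 3 of 10 lower and 1 higher, pdgfba, and transition and adhesion genes 0.20 with 2 of 10 higher and 1 lower. Leaving out 1 cell gave -1.36 (cell 14) to -0.43 (cell 10) for venous, -1.28 (cell 8) to -0.29 (cell 10) for sprouting and -0.26 (cell 8) to 0.31 (roof cell 9) for transition genes, and the log2 ratio of pdgfba came to 0.62 without cell 10.

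**Figure D3:**
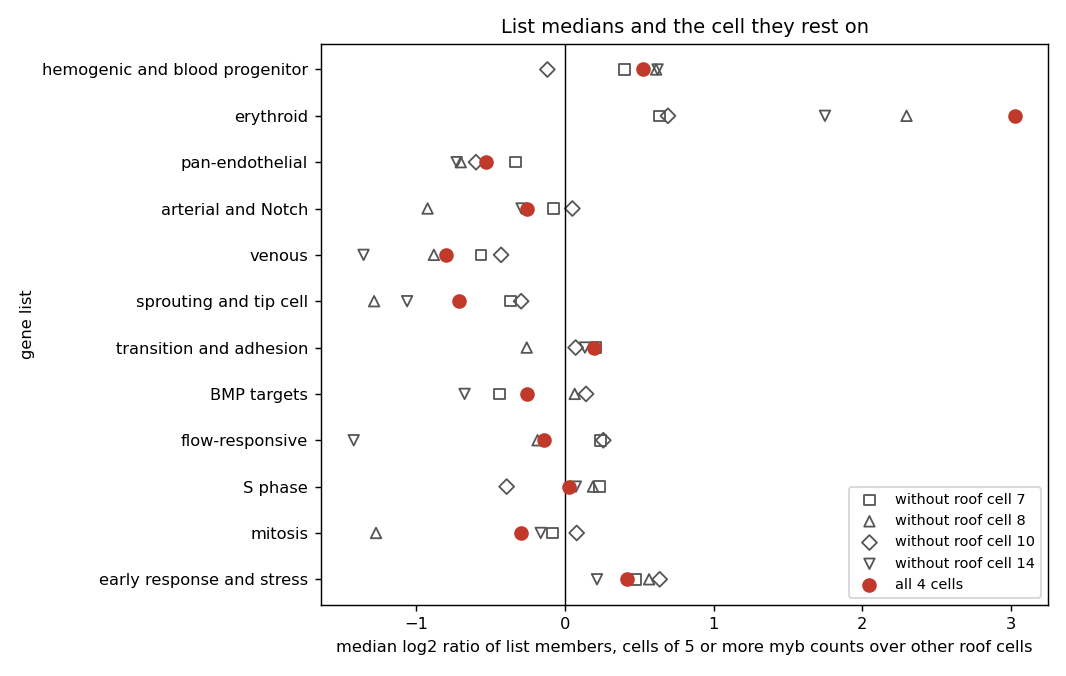
Median log2 ratio of each gene list, cells of 5 or more myb counts over the other roof cells (filled circle), with the open symbols giving the median when 1 of the 4 cells is left out. The hemogenic median goes from 0.52 to -0.12 without cell 10 and the erythroid median from 3.03 to 0.64 without cell 7, while the pan-endothelial median stays between -0.73 and -0.33.

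The number of genes that separated all 4 cells from all 14 was small. Of 971 genes with 5 or more thinned reads in each of the 4 cells, 0.103% (1) lay above every other roof cell, zbtb2b, a zinc finger gene, at 343, 192, 262 and 255 CPM in cells 7, 8, 10 and 14 against 0 to 136. Of 498 genes with 5 or more reads in each of the 14, 0.201% (1) lay below every other roof cell, csnk1g1, a casein kinase gene, at 11.1, 125, 4.51 and 115 CPM against 311 to 2776. Neither is a gene of the blood or endothelial lists.

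The cells were therefore read one at a time against the 14, counting genes at least 2-fold above the highest or 2-fold below the lowest of them. This count was added after the first values were seen. The blood lists held 65 genes, and upward only those with 5 or more thinned reads in the cell itself were read. A blood-list gene thus entered only where that cell carried it, so these counts are not shares of the whole lists. In cell 7, 11.9% of 3214 genes with 5 or more thinned reads were above, and of 10 blood-list genes 6 were, namely blf, cebpa, gfi1aa, gfi1ab, klf17 and tal1. In cell 10, 14.7% of 2795 genes were above, and of 11 blood-list genes 5 were, namely cebpa, cebpb, hbae1.1, ikzf1 and znfl2a. In cell 14, 4.25% of 3573 genes were above and 1 of 8 blood-list genes, cebpb. In cell 8, 5.16% of 3626 genes were above and 0 of 6 blood-list genes. Each of the other 14 cells set against the remaining 13 in the same way had 4.69 to 14% of genes above and 0 to 2 blood-list genes, among them cebpa in roof cell 1, blf in roof cell 5 and znfl2a in roof cell 9.

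Downward, 13.7% of the 498 genes were at least 2-fold below every other cell in cell 7, 8.63% in cell 10, 1.61% in cell 8 and 0.201% in cell 14. Of 16 genes of the pan-endothelial, arterial, venous and sprouting lists that could be read this way, 5 were below in cell 7 (dll4, egfl7, etv2, fli1b and she), 3 in cell 10 (efnb2a, fli1b and stab2) and 0 in cells 8 and 14. The other cells had 0 to 6. The 6 were of 20 genes in roof cell 9, the shallowest library, and the next highest was 2 of 18, in roof cell 12. A count as high as that of cell 7 or 10 thus occurred in roof cell 9 alone, with more genes read. The 0 myb counts of roof cell 9 allow up to 28.4 CPM, above the 6.07 and 7.53 CPM of cells 8 and 14. Its depth therefore cannot show whether it held myb at the levels of cells 8 and 14. The limit lies below the 483 and 821 CPM of cells 7 and 10.

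Genes high in both cells 7 and 10 were looked for after these values were seen. Of 1430 genes with enough reads in both, 2.17% (31) were at least 2-fold above every other roof cell, and of 498 genes 2.41% (12) at least 2-fold below. Besides cebpa, the 31 held dnmt3bb.1, a DNA methyltransferase that in the zebrafish is known to keep myb expressed in stem and progenitor cells, at 264 CPM in cell 7, 1.73 in cell 8, 519 in cell 10 and 106 in cell 14. The other roof cells had at most 54.3 CPM of it and the myb-positive floor cells a median of 5.43. The zinc finger gene drl, an early marker of lateral mesoderm and blood in the zebrafish, was at 102, 0.867, 217 and 5.27 CPM against at most 18.4, with a floor median of 556. The gene vwf, encoding the clotting protein von Willebrand factor, was at 62.0 CPM in cell 7 and 203 in cell 10, and at 0 in the other 16 roof cells, with a floor median of 0.690.

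Among the 31, cebpa is the only blood-list gene. The rest also included hyou1, an endoplasmic reticulum chaperone, at 1034 and 1331 CPM in cells 7 and 10 against at most 488, vamp8, a vesicle fusion protein, at 80.5 and 171 CPM against at most 1.94, and jdp2b, a leucine-zipper factor, at 255 and 483 against at most 122. Also among them was rgma, a BMP co-receptor, at 204 and 338 against at most 65.7. The gene si:dkey-261j4.4, without a role given here, was at 179 and 226 CPM in cells 7 and 10, against at most 76.9 in the other roof cells and a median of 886 in the myb-positive floor cells. Among the 12 low in both were fli1b, tmem88a, an endothelial membrane protein, at 15.3 and 0 CPM against 193 to 2809, and ilk, the integrin-linked kinase, at 9.72 and 0 against 75.8 to 492. For tmem88a and ilk, cells 8 and 14 lay inside the range of the others.

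The rule for naming genes from the sums asked for a 2-fold difference in thinned sums, raw sums and mean CPM and without any 1 cell. By it, 117 genes were higher and 255 lower in the 4 cells. The minimum of detection was set in the 4 cells for higher genes and in the other cells for lower genes. How many genes met each minimum is not given here, so these numbers cannot be compared with each other. The leading 12 higher genes were ppme1, cebpa, dnmt3bb.1, sepp1a, rtel1, prmt3, mycn, hps4, dtnba, wu:fi04e12, rrbp1b and setbp1. Of these, cebpa is the only member of the blood lists. The MYC family gene mycn, which drives growth, was at 94.4, 0.867, 514 and 407 CPM in cells 7, 8, 10 and 14 against at most 78.8, and 33.9-fold higher in sum (19.1 to 65.5), with a log2 ratio of 5.08 that was 8.68 without roof cell 3 and 4.38 without cell 10. The helicase gene rtel1, which acts on telomeres, was at 203, 92.7, 537 and 11.3 CPM against at most 75.5. The dystrobrevin gene dtnba had reads in all 4 cells, at 96.3, 35.5, 22.6 and 37.6 CPM against at most 10.7, and its sum was 29.2-fold higher against a stand-in of 3 reads for the other sum, which was at 0, with a lower counting limit of 22-fold. The gene hps4, for the biogenesis of lysosome-related organelles, was at 115, 62.4, 0 and 21.1 CPM against at most 2.86.

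Among the 12 leading lower genes were cox10, for heme A synthesis, ppp2r3c, a phosphatase subunit, arcn1a, a coat protein of vesicles, rarga, a retinoic acid receptor, and ap2m1b, an adaptor of clathrin. Of the rest, 6 were ttyh2l, babam2, fkbp8, lcorl, exoc3l2b and hibadhb. None is a member of the endothelial lists. Their low levels were also met in single other cells, as each of the 12 was at 0 in at least 1 of them. The gene cox10 was at 2.78, 0, 0 and 16.6 CPM against 0 to 268 (median 103), and its 47.1-fold lower sum rests on 1 thinned read in the 4 cells, with an interval of 8.3 to 1873. Its log2 ratio was -5.56. Without cell 14, which held that read, the sum was 0, and the stand-in of 3 reads gave -3.56, an upper bound. The gene arcn1a was at 4.17, 0, 0 and 24.9 CPM against 0 to 341 (median 99.0).

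Genes that told the myb-positive floor cells of 21 hpf from the roof cells of 28 hpf were then counted in each cell. These 2 groups also differ in stage. A floor set of 134 genes was formed after the first results, of genes with 5 or more thinned reads in at least 10 of the 14 myb-positive floor cells and in 0 of the 10 roof cells of 28 hpf. A roof set of 138 genes was formed the opposite way, with at least 8 of the 10 roof cells of 28 hpf. Neither set used the roof cells of 21 hpf. Of the lists, the floor set held 8 erythroid, 4 S-phase and 1 hemogenic gene, and the roof set 7 pan-endothelial, 5 arterial, 5 sprouting, 2 venous, 1 thrombocyte and 1 transition gene. S-phase genes had a median share of 0.00897% in the roof cells of 28 hpf, against 0.156 to 0.559% in the 4 cells, and their part in the floor-set counts was not tested. Cell 7 showed 47 genes of the floor set, cell 10 36, cell 14 38 and cell 8 29, against 14 to 35 (median 25) in the other roof cells. Of the roof set cell 7 showed 39, cell 10 60, cell 8 96 and cell 14 96, against 61 to 104 (median 88.5). The floor cells with myb showed 88 to 128 and 0, which the choice of the sets fixes. Cells 7, 10 and 14 were above and cells 7 and 10 below the other roof cells on the respective set, cell 10 by 1 gene in each. The 4 floor cells under the rule showed 14 to 38 floor-set and 69 to 97 roof-set genes. Among them floor cell 18, with 2 myb counts, showed 38 of the floor set, as many as cell 14 and more than cell 10. For the floor set, a high number of genes went with cell 14, which had the most genes of the roof cells at the thinned depth, and the part of this in its count was not tested.

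**Figure D4:**
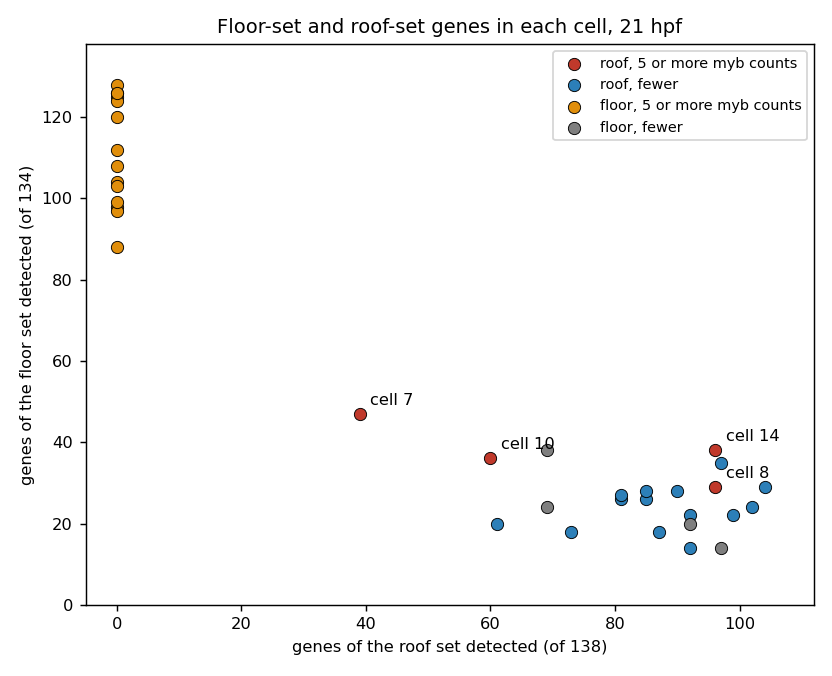
Number of roof-set genes (horizontal, of 138) and floor-set genes (vertical, of 134) with 5 or more thinned reads in each of the 36 cells of 21 hpf. Cell 7, at 39 and 47, lies between the myb-positive floor cells and the remaining cells, cell 10 is at 60 and 36, and cells 8 and 14 lie with 96 roof-set genes among the other roof cells.

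The 4 floor cells under the rule gave a further point of reference. Their pan-endothelial share was 0.925 to 3.67% and their erythroid share 0.00671 to 0.0174%, close to those of the 14 other roof cells at 0.907 to 5.28% and 0.00093 to 0.0169%. Cell 7 lay outside both floor groups in both shares.

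Cell division and stress genes also differed between the 4 cells. S-phase genes made up 0.156, 0.264, 0.559 and 0.292% of cells 7, 8, 10 and 14 against 0.0135 to 0.520%, with cell 10 above the range. Mitosis genes made up 0.299, 0.926, 0.0420 and 0.247% against 0.00044 to 1.05%, all within it. Early response and stress genes, which include jun and gadd45ba, made up 1.77, 0.520, 0.884 and 1.05% against 0.258 to 1.39%, with cell 7 above every other roof cell. The stress gene gadd45ba was at 413, 46.8, 194 and 743 CPM in cells 7, 8, 10 and 14 against at most 433, with cell 14 above them, and jun at 380, 134, 510 and 693 against at most 443, with cells 10 and 14 above. The part of these genes in the blood and endothelial levels of cell 7 was not tested.

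Markers of other tissues lay within or below the range of the other roof cells in the 4 cells, except the notochord list in cell 14, at 0.000151% against 0. Muscle genes made up 0.00045 to 0.0151% of their counts against 0 to 0.0395% in the other roof cells, and neural genes 0.00347 to 0.0351% against 0.00377 to 0.0667%. Epidermis genes, mainly krt8, made up 0.0263, 0.147, 0.178 and 0.0941% of cells 7, 8, 10 and 14 against 0.0732 to 0.285%, with cell 7 below that range. Of the notochord, gut and mural lists 0 genes reached 5 thinned reads in any of the 4 cells. Red cell genes were mixed. While gata1a and the globin genes hbae5 and hbbe2 were at 0 in all 4 cells, blf, znfl2a, klf17 and hbae1.1 were above the other roof cells in cell 7, 10 or 14, as given above, and hbae3, hbbe1.1 and hbbe3 had reads in some of the 4. The summed erythroid share of cells 7 and 10 was above that of the other roof cells, and the part of another cell's RNA in it was not tested.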

How the data were processed

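The authors deposited raw gene counts of each cell. The submitters' processing notes name Trim Galore, STAR and the GRCz11 (danRer11) build. Neither their versions nor the counter, annotation and strandedness are stated (not given in the sources used here). Per the labels' protocols, libraries were sequenced as 150 bp paired-end reads. Of 35117 genes, 4606 took their symbol from a reference table by ID. Where entries had a symbol in common, the most read one kept the plain symbol. The remaining 1869 such entries stayed among the genes counted and were not named.

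Single-cell levels are CPM of the raw counts. For sums, each cell was thinned to 120000 reads (seed 1), which kept all 18 roof cells, giving 480000 and 1680000 reads. A gene needed 10 reads over both sums, and 3 reads, or 6.25 and 1.79 CPM, stood in for a sum of 0. Intervals are exact 95% intervals for the counting of reads, which after amplification without molecular identifiers are not independent molecules. No doublet caller was run on these hand-picked cells.

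The members and the 21 gene lists were chosen with earlier results of these data known. Named genes were 24 key genes, whatever their values, and up to 12 each way by ratio. The latter needed 50 or more CPM in the higher group, 5 thinned reads in 3 of the 4 cells or in at least 50% of the others, and a 2-fold difference in thinned sums, raw sums and mean CPM and without any 1 cell. Up to 2 examples a list and way, up to 5 blood genes a cell and up to 8 non-overlapping genes a way were added. The counts per cell, the genes shared by cells 7 and 10 and the floor and roof sets were chosen after seeing the data, and so were 2 alternatives, without cells 7 and 10 and without cells under 600000 counts. The other alternatives were raw sums, mean CPM, another seed, 200000 reads, edgeR 4.0.16 TMM factors, DESeq2 1.42.0 size factors, other minimums, a pseudocount of 1 CPM, totals without mitochondrial genes, other myb thresholds and leaving out each cell. The ratios of thinned sums and their intervals were tested on simulated data, and the other steps were not. All simulated cells of a group shared 1 profile, so variation between cells was not part of it. Work was done in Python 3.11.15 with numpy 2.4.6, pandas 2.3.3, scipy 1.17.1 and matplotlib 3.10.9, and in R 4.3.3.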

Additional observations from a re-analysis of the deposited data

Results flagged for a closer look

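Of 38 values read over the 4 roof cells with myb, 5 had 1 cell far from the other 3, by the share of their range that lay between it and the nearest. Chance flags about 1 in 20 such sets where values spread evenly, but in 3 of the 5 the other 3 cells were all at 0, where any level above 0 meets the criterion. In cell 10, ikzf1 was at 375 CPM, with the other 3 cells at 0 to 0.867 CPM. In cell 14, klf2a was at 291 CPM with the others at 0, and mybl2b, a paralog of myb that acts in the cell cycle, was at 45.9 CPM with the others at 0 to 4.63 CPM. Also in cell 14, notochord and sclerotome genes made up 0.000151% of counts and mural and mesenchyme genes 0.00181%, with the others at 0. The mybl2b level of cell 14 lay inside the range of the other roof cells, 0 to 401 CPM, and the klf2a level above it.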

How the results depend on the processing

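No paired analysis was possible because the replicate numbers only number the cells and both sides of the comparison are cells of 1 group. The number of genes at least 2-fold higher was 2908 with no minimum of reads. Leaving out 1 cell gave 1719 to 1982 higher and 2145 to 2528 lower genes, and pan-endothelial medians of -0.73 to -0.33. The hemogenic median, 0.52, was 0.0848 from raw sums, 0.79 with seed 2, 0.87 with TMM, 1.03 with no minimum, 0.80 at 1 or more myb counts, 0.98 at 5 or more thinned myb reads, 0.0938 with cells 8 and 14 alone as positive and -0.15 in cells of 600000 or more counts, and -0.12 to 0.75 leaving out 1 cell. The pan-endothelial median was -1.16 at 5 or more thinned myb reads. Non-overlapping higher genes, 1, were 2 at 200000 reads, 0 at 1 or more myb counts, 9 at 10 or more, 88 at 5 or more thinned reads, 37 with cells 8 and 14 alone, 11 in the deeper cells and 1 to 9 leaving out 1 cell. Non-overlapping lower genes, 1, were in that order, from 1 or more myb counts on, 0, 5, 24, 6, 4 and 1 to 5 leaving out 1 cell. With fewer positive cells this count is easier to pass. The number of genes tested changed too, from 971 for the 4 cells to 1430 for higher genes at 5 or more thinned reads. It is not given here for the other settings, so these counts cannot be compared with each other. The log2 ratios of cox10, exoc3l2b and ap2m1b turned to 0.81, 0.57 and 0.61 at 1 or more myb counts, and that of gata2b to -0.32 at 5 or more thinned reads. For these and the list medians, the cause was not tested. The median log2 ratio of all genes was -0.15, -0.26 from raw sums and -0.02 with TMM. Depth limits cell 10 most among the 4, where 1 read equals 4.51 CPM.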

Other observations

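Some values concern single cells with no myb read. Roof cell 1, with 0 myb counts, carried cebpa at 230 CPM and 18.4 CPM of drl, the highest levels of both among the 14 other roof cells. Roof cell 11, with 0 myb counts, had dnmt3bb.1 at 54.3 CPM and cdh5 at 3.88 CPM. In adhesion genes, cdh2, encoding N-cadherin, was at 319 CPM in cell 8 and 48.2 in cell 14, with 0.463 in cell 7 and 0 in cell 10, against at most 105 in the other roof cells. The sphingosine receptor gene s1pr1 was at 427 CPM in cell 14 and 0 in cells 7, 8 and 10, against at most 352. The arterial connexin gene gja5a was at 243 CPM in cell 8, above every other roof cell, 137 in cell 14, 4.51 in cell 10 and 0 in cell 7, against at most 152.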
